A study of Mus musculus with 15 samples.

Results

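Interferon-stimulated genes are the genes that a cell switches on when interferon reaches its receptors, and 44 of them, taken by symbol from a fixed list, were followed here across every condition of a study of mouse microglia after stroke. All 44 were found in each of the 3 deposited gene tables, out of 24421 genes. Type I interferons bind the receptor made of Ifnar1 and Ifnar2, the kinases Jak1 and Tyk2 are activated, and a complex that holds Stat2 and Irf9 binds interferon-stimulated response elements in the promoters of target genes. Interferon gamma acts through Ifngr1 and Ifngr2, and its target genes carry gamma-activated sites. The products sense viral nucleic acid, block viral replication, or turn the pathway up or down, and microglia, the resident macrophages of the brain, express many of them in infection, ageing and neurodegeneration.

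Microglia were sorted as cells with intermediate CD45 and CD11b staining from the forebrains of male mice aged 8 to 24 weeks, and RNA was sequenced in bulk. Stroke was produced by blocking the middle cerebral artery for 60 minutes and then restoring flow, while sham mice had the surgery without the occlusion. The groups were Cx3cr1-CreER;Yy1flox/flox mice on day 6 (Yy1-deleted, 3 libraries) against Yy1flox/flox mice on day 6 (floxed controls, 3 libraries), EGFP-positive against EGFP-negative cells of Igf1-Egfp transgenic mice, taken on day 6 and on day 14 (1 library each), and wild-type C57BL/6J mice after sham surgery and on days 1, 6, 14 and 28 (1 library each). Yy1 is a zinc finger transcription factor, and Cre driven by Cx3cr1 acts in microglia and in other cells that express Cx3cr1. All groups but sham had a stroke. The floxed mice lack Cre, and Cre itself and the loss of Yy1 cannot be told apart. How many mice gave a library is not stated in the sources used here.

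Libraries held 16786830 to 52618224 counts in the table of the time course and the day 6 EGFP cells, 23105218 to 24554968 in the day 14 EGFP table and 10528327 to 13936065 in the Yy1 table. The number of genes with counts was 9886 in the wild-type day 28 library and 11823 in that of day 14, against 16009 in sham. It was 12498 in EGFP-positive and 10892 in EGFP-negative cells on day 14. All 10 microglial marker genes were detected in every library. Igf1 stood at 813 CPM (counts scaled to a common library total) in the EGFP-positive, against 49.5 CPM in the EGFP-negative library on day 6, and at 33.5 CPM in the EGFP-positive, against 11.1 CPM in the EGFP-negative library on day 14. Yy1 stood at 33.4 ± 4.99 CPM in Yy1-deleted and 61.6 ± 13 CPM in floxed libraries (SD, n = 3 each), with no overlap between the groups (log2 fold change -0.88, adjusted p = 0.128 in edgeR's quasi-likelihood test).

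The promoters are shown first, because the response element was found in many of the listed genes and was not used to choose them. The 250 bases before the RefSeq start (GRCm38.p6) are printed 5′ to 3′ on the gene's strand, with matches to the interferon-stimulated response element, searched as GAAANNGAAA on both strands, in capitals. Isg15 lies at chr4:156200819-156201068 (minus strand), Ifit1 at chr19:34640639-34640888 (plus), Oas3 at chr5:120777660-120777909 (minus) and Rsad2 at chr12:26456453-26456702 (minus). Bst2 lies at chr8:71537473-71537722 (minus), Trim30a at chr7:104465194-104465443 (minus) and Lgals3bp at chr11:118401960-118402209 (minus). Isg15 and Ifit1 carry overlapping or repeated matches, and Oas3 and Rsad2 carry 1 each and stood at 0 counts in one EGFP library. Bst2 and Trim30a were the members called in the Yy1 comparison, and Lgals3bp, at high levels throughout, has no match. In the GENCODE annotation Lgals3bp begins at chr11:118402092, inside the printed span, so only part of its printed bases precede that start.
Isg15: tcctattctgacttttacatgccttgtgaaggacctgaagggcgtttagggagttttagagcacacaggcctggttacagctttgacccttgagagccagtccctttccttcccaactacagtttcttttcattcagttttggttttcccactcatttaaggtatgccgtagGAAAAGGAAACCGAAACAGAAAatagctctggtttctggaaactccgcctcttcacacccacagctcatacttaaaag
Ifit1: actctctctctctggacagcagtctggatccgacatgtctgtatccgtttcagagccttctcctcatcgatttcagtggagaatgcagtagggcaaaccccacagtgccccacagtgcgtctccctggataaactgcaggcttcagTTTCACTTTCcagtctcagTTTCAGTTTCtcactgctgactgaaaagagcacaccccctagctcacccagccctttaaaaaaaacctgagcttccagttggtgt
Oas3: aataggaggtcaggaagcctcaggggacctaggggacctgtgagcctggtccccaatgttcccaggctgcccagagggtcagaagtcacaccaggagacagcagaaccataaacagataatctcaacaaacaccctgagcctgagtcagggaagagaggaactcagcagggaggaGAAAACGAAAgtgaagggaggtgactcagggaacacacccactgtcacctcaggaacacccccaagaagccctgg
Rsad2: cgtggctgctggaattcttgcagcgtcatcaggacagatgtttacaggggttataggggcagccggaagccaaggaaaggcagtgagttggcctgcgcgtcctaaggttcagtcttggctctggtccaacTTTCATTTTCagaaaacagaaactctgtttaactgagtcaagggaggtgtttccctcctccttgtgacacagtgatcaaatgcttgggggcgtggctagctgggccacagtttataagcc
Bst2: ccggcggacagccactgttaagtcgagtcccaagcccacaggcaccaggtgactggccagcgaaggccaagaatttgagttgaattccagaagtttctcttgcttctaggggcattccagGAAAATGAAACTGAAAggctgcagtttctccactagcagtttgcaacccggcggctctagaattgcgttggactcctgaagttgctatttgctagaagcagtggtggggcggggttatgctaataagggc
Trim30a: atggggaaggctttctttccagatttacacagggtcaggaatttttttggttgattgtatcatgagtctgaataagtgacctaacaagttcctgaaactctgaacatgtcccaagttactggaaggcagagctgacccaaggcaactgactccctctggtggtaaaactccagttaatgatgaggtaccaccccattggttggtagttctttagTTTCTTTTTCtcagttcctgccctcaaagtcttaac
Lgals3bp: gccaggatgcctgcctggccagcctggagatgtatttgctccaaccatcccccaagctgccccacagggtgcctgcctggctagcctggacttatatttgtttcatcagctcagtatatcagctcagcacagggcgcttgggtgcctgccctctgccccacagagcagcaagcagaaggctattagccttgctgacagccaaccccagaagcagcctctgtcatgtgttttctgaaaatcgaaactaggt

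A promoter window of 300 bases, from 250 before to 50 after the start, was given for 34 of the 44 genes. The response element was matched in 20 of the 34 (58.8%), against 3.99% of 27025 genes with a window, and at least 2 matches were found in 8 of them, against 0.266% of all genes. The gamma-activated site, searched as TTCNNNGAA, was matched in 8 of the 34 (23.5%), against 9.55% of all genes. The YY1 motif, searched as GCCATNTT on both strands, was matched in 0 of the 34, against 6.96% of all genes, which says only that these letters are not in these windows. Parp9, Parp14, Usp18, Mx1, Zbp1, Oas2, Dhx58, Rtp4, Ifi27l2a and Ifi204 had no window. Of the genes with a match, 9 of 20 were past the size rule given below on day 14 against sham, as were 9 of the 14 with a window and no match.

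In wild-type mice most of the genes were higher after stroke than in sham, and most were highest on day 14 or day 28. The count highest on day 28 was near the share over all genes, while that on day 14 was above it. Their summed level was 1308.6 CPM in sham and 1729, 3435, 4542 and 4319.5 CPM on days 1, 6, 14 and 28. None was highest in sham, and 1, 5, 22 and 16 were highest on days 1, 6, 14 and 28, while 22 were lowest in sham and 14 on day 28. Of all genes that reached 20 CPM, 17.3% were highest in sham, 26% on day 14 and 35.1% on day 28, while 12.6% were lowest in sham and 37.9% on day 28. Each time point is 1 library, so the spread between mice is unknown here, and in bulk samples a change in the number of cells of a type and a change in RNA per cell cannot be told apart.

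**Figure D1:**
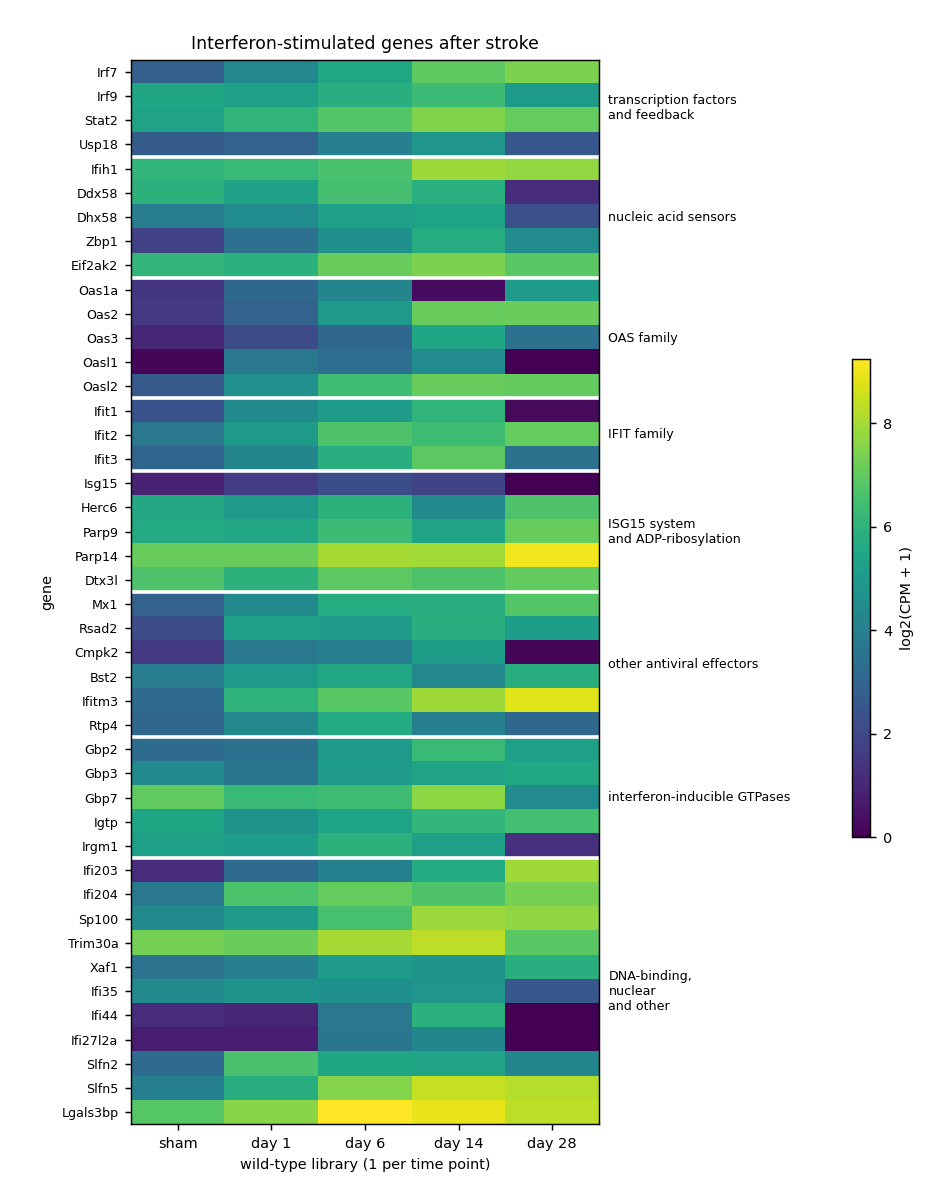
Levels of the 44 genes in the 5 wild-type libraries, as log2(CPM + 1), in rows grouped by role, with 1 library per column and yellow for high. Most rows brighten between sham and day 14, and 4 genes (Isg15, Oasl1, Ifi44 and Ifi27l2a) are at 0 on day 28.

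A gene was counted as past the size rule when its CPM plus 1 differed by a log2 ratio of at least 2 and 1 of both libraries reached 20 CPM. On day 1 against sham, 6 of the 28 genes that reached 20 CPM were higher and 0 lower, against 5.59% of all such genes higher and 2% lower. On day 6 against sham, 16 of 35 were higher and 0 lower, against 6.25% and 0.0846% of all genes. On day 14 against sham, 23 of 39 were higher and 0 lower, against 12.9% and 6.82% of all genes. On day 28 against sham, 14 of 32 were higher and 3 lower, against 11.1% and 15.2% of all genes. The median log2 ratio over those genes was 0.47, 1.63, 2.19 and 1.95 on days 1, 6, 14 and 28, beside -0.00, -0.09, -0.03 and 0.15 over all genes. A gene could reach 20 CPM in the stroke library alone, so this median leaves out genes low in both. With no minimum, the median over all 44 genes was 0.76, 2.12, 2.16 and 1.27 on days 1, 6, 14 and 28. Ratios above 0 were found in 31, 42, 39 and 30 of the 44 on these days. All 4 comparisons share the sham library.

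Between neighbouring times the median log2 ratio over the genes that reached 20 CPM was 0.93 on day 6 against day 1, 0.70 on day 14 against day 6 and -0.44 on day 28 against day 14. Over all 44 genes these medians were 0.96, 0.58 and -0.57. On day 6 against day 1, 1 of 35 genes was past the rule, Oas2, and it was higher, with 0 lower (2.25% and 1.6% of all genes). On day 14 against day 6, 3 of 41 were higher and 0 lower (4.46% and 4.73% of all genes): Oas2, Oas3 and Ifi44. On day 28 against day 14, 3 of 41 were higher and 11 lower (14.6% and 22.6% of all genes), the higher ones being Oas1a, Herc6 and Ifi203. The lower ones were Ifit1, Ifit3, Oasl1, Usp18, Ifi44, Ifi35, Ddx58, Dhx58, Cmpk2, Gbp7 and Irgm1, a count near the share over all genes.

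The transcription factors and their feedback gene were led by Irf7, the factor that amplifies interferon production, at 6.11 CPM in sham and 19.0, 44.6, 122 and 172 CPM on days 1, 6, 14 and 28. Stat2, a subunit of the type I complex, stood at 39.7 CPM in sham and 64.8, 109.8, 182 and 134 CPM on days 1, 6, 14 and 28. Irf7 was higher at each later time point, whereas Stat2 was highest on day 14. Irf9, the DNA-binding subunit of that complex, stood at 43.0 CPM in sham and 37.0, 55.2, 80.3 and 31.8 CPM on days 1, 6, 14 and 28. Usp18, the protease that removes Isg15 from proteins and dampens receptor signalling, stood at 5.62 CPM in sham and 6.72, 15.1, 27.3 and 4.83 CPM on days 1, 6, 14 and 28. On day 14 against sham, 3 of these 4 genes were past the size rule, all but Irf9.

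Among the nucleic acid sensors, Zbp1, a sensor of left-handed nucleic acid that can start cell death, stood at 2.44 CPM in sham and 10.3, 23.8, 51.8 and 21.2 CPM on days 1, 6, 14 and 28. Ifih1, which encodes the double-stranded RNA sensor MDA5, stood at 69.4 CPM in sham and 73.3, 96.1, 238 and 214 CPM on days 1, 6, 14 and 28. Ddx58, which encodes the RNA sensor RIG-I, stood at 59.8 CPM in sham and 37.7, 90.4, 56.9 and 1.23 CPM on days 1, 6, 14 and 28. Ifih1 and Ddx58, related sensors, thus stood apart on day 28, when Ddx58 had a log2 ratio to sham of -4.77 and Ifih1 one of 1.61. Ddx58 had 28 counts in that library, which had counts for 9886 genes, against 16009 in sham. Of all genes that reached 20 CPM, 15.2% were past the rule below sham there. Dhx58, the third member of that sensor family, ranged from 3.77 CPM on day 28 to 39.9 CPM on day 14, and Eif2ak2, the RNA-activated kinase that halts translation, ranged from 59.6 CPM on day 1 to 171 CPM on day 14.

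The OAS genes and their Oasl relatives, a family named for enzymes that make the messenger that activates RNase L, had the highest family ratios on day 14, with a median log2 ratio to sham of 4.44 over the 5 genes. Oas2 stood at 1.99 CPM in sham and 6.44, 30.0, 137 and 139 CPM on days 1, 6, 14 and 28. Oasl2 stood at 5.21 CPM in sham and 24.4, 81.7, 136 and 129 CPM on days 1, 6, 14 and 28. Both held their day 14 level on day 28. Oas1a, whose reads may be split with close copies such as Oas1g, stood at 1.78 CPM in sham and 7.69, 17.4, 0.218 and 32.7 CPM on days 1, 6, 14 and 28. Oas3 was highest on day 14 at 42.0 CPM, against 0.975 CPM in sham, and Oasl1 was also highest on day 14 at 20.8 CPM, against 0.112 CPM in sham. Oas1a was the only gene of the family whose day 14 level was under its sham level.

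The IFIT genes, whose proteins bind viral RNA and block its translation, were all 3 past the size rule on day 6 and on day 14. Ifit2 stood at 11.6 CPM in sham and 31.7, 101, 82.5 and 131 CPM on days 1, 6, 14 and 28. Ifit3 stood at 6.80 CPM in sham and 17.3, 55.2, 120.0 and 10.05 CPM on days 1, 6, 14 and 28. Ifit1 stood at 4.01 CPM in sham and 20.7, 33.8, 64.8 and 0.176 CPM on days 1, 6, 14 and 28. The 3 neighbours on chromosome 19 were each higher on day 1 than in sham and higher again on day 6. They stood apart on day 28, when Ifit1 had 4 counts in the library with the fewest genes detected.

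Of the genes of ISG15 conjugation and ADP-ribosylation, Isg15, the ubiquitin-like protein, was near the floor throughout, at 0.825 CPM in sham and 2.24, 3.64, 2.72 and 0 CPM on days 1, 6, 14 and 28. Parp14, an ADP-ribosyltransferase, stood at 137 CPM in sham and 136, 258, 247 and 533 CPM on days 1, 6, 14 and 28. None of the 5 genes of this role was past the size rule at any time against sham. Herc6, the mouse ligase for Isg15, Parp9 and its partner Dtx3l ranged from 20.3 to 137 CPM over the 5 libraries, and Parp9 and Dtx3l have overlapping exons on opposite strands, so their reads cannot be told apart without strand.

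Of the other antiviral effectors, Ifitm3, which blocks the fusion of viruses in endosomes, stood at 8.40 CPM in sham and 62.0, 115, 239.8 and 441 CPM on days 1, 6, 14 and 28. Mx1, a dynamin-like antiviral GTPase, stood at 6.52 CPM in sham and 20.6, 52.1, 53.5 and 108 CPM on days 1, 6, 14 and 28. Rsad2, which encodes viperin, stood at 3.52 CPM in sham and 36.6, 33.4, 54.9 and 34.8 CPM on days 1, 6, 14 and 28. Rsad2 and Ifitm3 were already past the size rule on day 1. Cmpk2, a nucleotide kinase that lies beside Rsad2, was highest on day 14 at 35.8 CPM, against 1.95 CPM in sham. Bst2, which encodes the virion tether tetherin, stood at 13.7 CPM in sham and 31.1, 44.7, 19.7 and 55.7 CPM on days 1, 6, 14 and 28. Rtp4 was highest on day 6 at 51.3 CPM, against 7.38 CPM in sham.

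The interferon-inducible GTPases, which act on membranes around intracellular microbes, had log2 ratios to sham from 0.02 to 3.02 on day 14. Gbp2 stood at 8.57 CPM in sham and 10.2, 30.8, 76.5 and 36.1 CPM on days 1, 6, 14 and 28, and it was the one gene of 5 past the rule on day 14. Gbp7 stood at 127 CPM in sham and 74.9, 83.1, 204 and 21.9 CPM on days 1, 6, 14 and 28. Irgm1 stood at 36.7 CPM in sham and 32.6, 60.4, 37.2 and 1.40 CPM on days 1, 6, 14 and 28. Gbp7 and Irgm1, with Ddx58, were the 3 genes past the rule below sham on day 28, as were 15.2% of all genes that reached 20 CPM. Gbp3 had log2 ratios to sham from -0.84 to 1.07, and Igtp from -0.71 to 1.06.

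Among the DNA-binding, nuclear and other genes, Ifi203, a DNA-binding gene of the family of Ifi204, stood at 1.24 CPM in sham and 8.29, 15.8, 50.9 and 243 CPM on days 1, 6, 14 and 28, the highest ratio to sham of any of the 44 genes at any time (log2 6.77). Ifi204, a sensor of DNA in mouse, stood at 12 CPM in sham and 98.3, 133, 102 and 164 CPM on days 1, 6, 14 and 28. The reads of these near copies, and of their neighbour Mndal, may be split between them. Slfn2, which sustains immune cell quiescence, stood at 8.30 CPM in sham and 95.7, 42.7, 41.5 and 17.8 CPM on days 1, 6, 14 and 28. It was the 1 gene highest on day 1. Slfn5 stood at 15.0 CPM in sham and 52.9, 184, 347 and 297 CPM on days 1, 6, 14 and 28. Lgals3bp, a secreted galectin-binding glycoprotein, stood at 110.1 CPM in sham and 195, 607, 491 and 322 CPM on days 1, 6, 14 and 28. Sp100, a nuclear body protein, stood at 20.7 CPM in sham and 32.4, 93.3, 232 and 207 CPM on days 1, 6, 14 and 28. Slfn5 and Sp100 kept most of their day 14 level on day 28. Trim30a, a feedback inhibitor of innate signalling in mouse, stood at 157 CPM in sham and 138, 253, 318 and 118 CPM on days 1, 6, 14 and 28, and Xaf1, Ifi35, Ifi44 and Ifi27l2a were at most 58.3 CPM in any wild-type library.

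Per kilobase of exon, the highest day 6 level was that of Lgals3bp (261 CPM per kb), then Ifitm3 (170.1 CPM per kb) and Trim30a (67.2 CPM per kb), and the lowest was that of Oas3 (1.60 CPM per kb). In sham, Lgals3bp (47.2 CPM per kb) and Trim30a (41.8 CPM per kb) were the highest. With 1 library each, neighbours in this order cannot be said to differ.

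The interferon genes themselves were hardly seen. Of 12 interferon genes in the tables, 8 had no count in any of the 15 libraries, and none reached 20 CPM. Ifnb1 had counts in 6 of the 15 libraries and reached at most 4.32 CPM, in EGFP-negative cells on day 6, where Ifng stood at 1.14 CPM. Ifnk, an epithelial type I interferon, had the highest level of the 12, at 5.68 CPM in the EGFP-positive, against 1.54 CPM in the EGFP-negative library on day 6. Ifnar1 had 131 CPM in sham and 192, 168, 259 and 141 CPM on days 1, 6, 14 and 28. Ifngr1 had 853 CPM in sham and 304, 409, 227 and 448 CPM on days 1, 6, 14 and 28. None of the 8 receptor and kinase genes that reached 20 CPM was past the size rule on days 1, 6 or 14, and Jak2 was past it on day 28. Of 69 further interferon-induced genes, 6 of 36, 4 of 39, 13 of 45 and 13 of 45 were higher than in sham on days 1, 6, 14 and 28, and 1, 0, 0 and 3 were lower. Of all genes, 5.59%, 6.25%, 12.9% and 11.1% were higher on these days, and 2%, 0.0846%, 6.82% and 15.2% lower. Cxcl10, a chemokine gene that attracts T cells, was past the rule on days 1, 6 and 14, at 9.15 CPM in sham and 129.7, 65.6, 98.4 and 36.5 CPM on days 1, 6, 14 and 28.

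Markers of other cells moved over the same libraries. The summed level of 8 monocyte markers was 60.5 CPM in sham and 1588, 1424, 2132 and 2052 CPM on days 1, 6, 14 and 28. Most of it on days 6 and 14 came from Fn1, and the other 7 markers together had 15.3 CPM in sham and 445, 63.1, 37.6 and 1296 CPM on days 1, 6, 14 and 28, with Ccr2, Ly6c2 and Chil3 under their sham level on day 14. The summed level of 8 neutrophil markers was 696 CPM in sham and 2139, 801, 410 and 2767 CPM on days 1, 6, 14 and 28. Of this, Csf3r alone had 654 CPM in sham, and the other 7 together had 42.0 CPM in sham and 1949, 339, 11.1 and 2151 CPM on days 1, 6, 14 and 28. The 10 microglial markers summed to 35422 CPM in sham and 9024, 18699, 10839 and 16928 CPM on days 1, 6, 14 and 28. The sum of 10 endothelial and mural markers was 251 CPM in sham and 397, 3081, 5697 and 31.0 CPM on days 1, 6, 14 and 28. That of 7 dendritic cell markers was between 15.7 and 17.9 CPM in the other libraries and 457 CPM on day 28. Of the markers, 1 monocyte, 3 neutrophil and 4 border-associated macrophage markers were at 0 on day 14, while no endothelial marker was at 0. Their part in the time course was not tested.

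In the reporter mice the genes were lower in EGFP-positive than in EGFP-negative cells on day 6, and higher in EGFP-positive cells on day 14. Their summed level was 2815 CPM in the EGFP-positive, against 5137 CPM in the EGFP-negative library on day 6, and 6078 CPM in the EGFP-positive, against 3223 CPM in the EGFP-negative library on day 14. With a size rule of a log2 ratio of 1, EGFP-positive cells had 0 of 43 genes higher and 24 lower on day 6, against 7.53% and 11.9% of all genes. On day 14, 15 of 41 genes were higher and 0 lower, against 11.2% and 10.9% of all genes. The median log2 ratio over these genes was -1.06 on day 6 and 0.89 on day 14, beside -0.04 and 0.03 over all genes. Over all 44 genes, 38 lay below 0 on day 6 and above 0 on day 14, 4 lay above 0 on both days (Bst2, Isg15, Oas1a and Lgals3bp) and 2 below 0 on both (Irf9 and Gbp3). With libraries scaled to total counts the number above 0 on day 14 was 35 in place of 42.

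**Figure D2:**
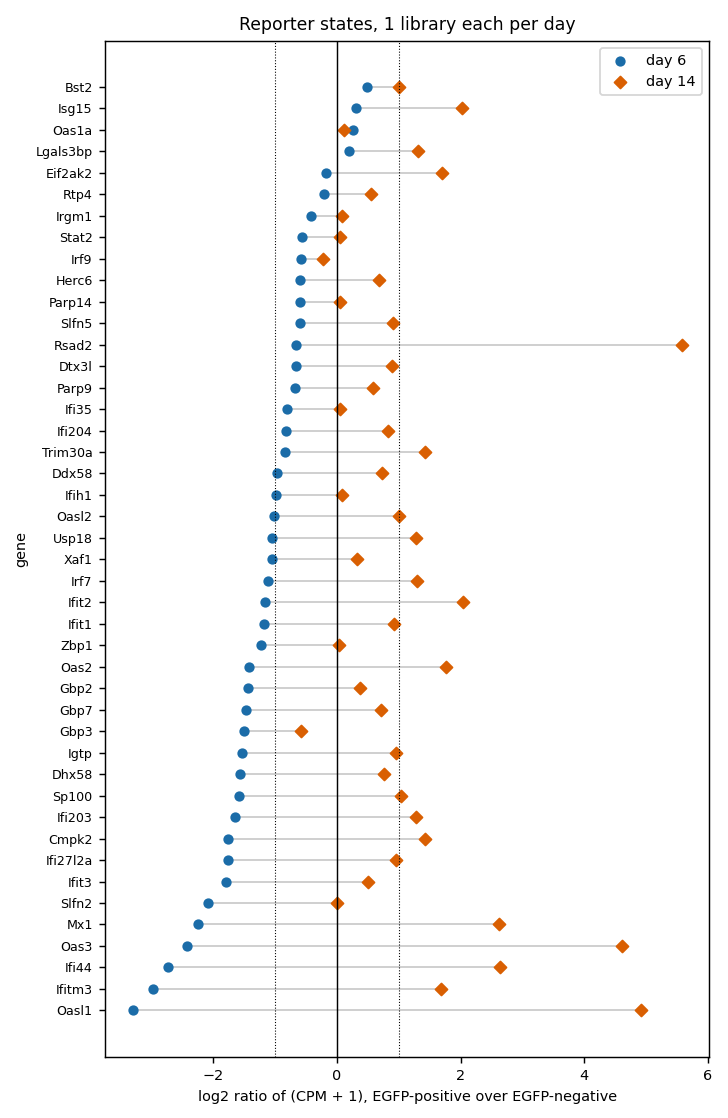
The log2 ratio of EGFP-positive over EGFP-negative cells for each of the 44 genes, with circles for day 6 and diamonds for day 14, 1 library per state and day, and dotted lines at the size rule. The circles lie mostly left of 0 and the diamonds mostly right of it, and the longest spans belong to Oasl1, Oas3 and Rsad2.

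On day 6 the widest gaps were in Oasl1, Ifitm3 and Ifi44. Oasl1 stood at 1.39 CPM in the EGFP-positive, against 22.6 CPM in the EGFP-negative library, Ifitm3 at 29.1 CPM in the EGFP-positive, against 235 CPM in the EGFP-negative library, and Ifi44 at 2.86 CPM in the EGFP-positive, against 24.6 CPM in the EGFP-negative library. Mx1 stood at 22.8 CPM in the EGFP-positive, against 112 CPM in the EGFP-negative library. Of the roles, 4 of 5 OAS genes, all 3 IFIT genes and 4 of 5 interferon-inducible GTPases were past the rule, and none of the ISG15 conjugation and ADP-ribosylation genes was. Slfn2 stood at 42.8 CPM in the EGFP-positive, against 186 CPM in the EGFP-negative library, and Oas3 at 12 CPM in the EGFP-positive, against 69.0 CPM in the EGFP-negative library. Lgals3bp, with the highest level of all, was 459 CPM in the EGFP-positive, against 401 CPM in the EGFP-negative library, and Bst2 was 70.5 CPM in the EGFP-positive, against 50.0 CPM in the EGFP-negative library.

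On day 14 the widest gaps were in genes at 0 in EGFP-negative cells. Rsad2 stood at 46.8 CPM in the EGFP-positive, against 0 CPM in the EGFP-negative library, Oasl1 at 29.4 CPM in the EGFP-positive, against 0 CPM in the EGFP-negative library, and Oas3 at 23.3 CPM in the EGFP-positive, against 0 CPM in the EGFP-negative library. Ifi44 and Ifi203 were also at 0 in EGFP-negative cells, at 5.21 and 1.44 CPM in EGFP-positive cells. The other wide gaps were in genes with counts in both. Mx1 stood at 59.4 CPM in the EGFP-positive, against 8.79 CPM in the EGFP-negative library, Ifit2 at 132 CPM in the EGFP-positive, against 31.4 CPM in the EGFP-negative library, and Eif2ak2 at 66.7 CPM in the EGFP-positive, against 19.9 CPM in the EGFP-negative library. Lgals3bp stood at 2229 CPM in the EGFP-positive, against 898 CPM in the EGFP-negative library. Among the roles, 5 of 6 other antiviral effectors and 3 of 5 OAS genes were past the rule, and none of the GTPases was.

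The 4 EGFP libraries were also fitted together in edgeR, with day and reporter state as terms, which leaves 1 residual degree of freedom. No gene of 12842 was called at an adjusted p of 0.05 (0% higher and 0% lower), 193 genes had an unadjusted p under 0.05, and none of the 44 genes was among them. DESeq2 called 31 genes and limma-voom 0, and neither called any of the 44. The reporter term is common to both days, so ratios of opposite sign on the days cancel in it, and the fit bears only on genes that differ the same way on both. A difference of sign between the days was not tested, since each day is 1 library per state and the day term also holds table and sequencer.

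Neutrophil, monocyte and dendritic cell markers moved with the day 6 contrast. The border-associated macrophage sum went the other way, at 670 CPM in the EGFP-positive, against 468 CPM in the EGFP-negative library. Summed neutrophil markers were 370.2 CPM in the EGFP-positive, against 11057 CPM in the EGFP-negative library, monocyte markers 1101 CPM in the EGFP-positive, against 4690 CPM in the EGFP-negative library, and dendritic cell markers 5.49 CPM in the EGFP-positive, against 299 CPM in the EGFP-negative library. On day 14, monocyte markers were 546 CPM in the EGFP-positive, against 94.1 CPM in the EGFP-negative library, where 5 of the 8 were at 0. Neutrophil markers on day 14 were 2084 CPM in the EGFP-positive, against 1241 CPM in the EGFP-negative library, and without Csf3r, which stood alike in both, they were 861 CPM in the EGFP-positive, against 0.157 CPM in the EGFP-negative library. The sums of both marker lists thus turned from day to day in the direction in which most of the 44 genes did. Other sums turned the same way, here with the EGFP-positive library first. Endothelial and mural markers were 463 against 583 CPM on day 6 and 448 against 30.7 CPM on day 14. Oligodendrocyte lineage markers were 140 against 147 CPM, then 224 against 198 CPM. T and NK cell markers were 10.3 against 44.6 CPM, then 0.404 against 0 CPM. The border-associated macrophage sum did not turn, at 27.0 against 0.864 CPM on day 14. Dendritic cell markers were 35.3 CPM in both libraries of that day. The part of any of these markers in either contrast was not tested. Other pathway genes moved on day 6 as well. Cxcl10 stood at 11.0 CPM in the EGFP-positive, against 90.1 CPM in the EGFP-negative library, Irf1, a factor induced by interferon gamma, at 32.1 CPM in the EGFP-positive, against 81.8 CPM in the EGFP-negative library, and Ifngr1 at 236 CPM in the EGFP-positive, against 557 CPM in the EGFP-negative library. Of the 69 further interferon-induced genes, EGFP-positive cells had 0 of 50 higher and 22 lower on day 6, and 9 of 39 higher and 1 lower on day 14. Over all genes, 7.53% were higher and 11.9% lower on day 6, and 11.2% and 10.9% on day 14.

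In the Yy1 comparison, the one with replicates, 2 of the 44 genes rose in Yy1-deleted microglia on day 6, Bst2 and Trim30a, and 0 fell, with 44 of 44 tested among 12387 genes (edgeR's quasi-likelihood test, adjusted p under 0.05). Over all genes, 1.55% were called higher and 1.05% lower, and a count of 2 is small to set against these shares. Fold changes were above 0 for 34 of the 44 (77.3%), against 48.7% of all genes, with Parp14 and Slfn5 turning below 0 when libraries were scaled to total counts. The median log2 fold change was 0.18 over the 44 and -0.02 over all genes. These p-values set the difference between genotypes against the spread between libraries of the same genotype.

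Bst2 stood at 72.2, 83.6 and 93.1 CPM in Yy1-deleted libraries, against 39.8, 31.3 and 42.0 CPM in floxed libraries. The groups do not overlap, and the log2 fold change was 1.14 ± 0.25 (SE), adjusted p = 0.0179. Trim30a stood at 434, 362 and 499.8 CPM in Yy1-deleted libraries, against 242, 325 and 243 CPM in floxed libraries, again without overlap, though reads may be shared with its copy Trim30d (log2 fold change 0.68 ± 0.17, adjusted p = 0.0360 in edgeR). Both calls depend on the libraries used. Without floxed library 1 neither was called (Bst2 adjusted p = 0.111, Trim30a 0.262 in edgeR), Bst2 was lost also without floxed library 2 (0.124), floxed library 3 (0.0535) or Yy1-deleted library 3 (0.0587), and Trim30a also without floxed library 3 (0.170) or Yy1-deleted library 1 (0.0954) or 3 (0.153), and with total counts in place of TMM scaling (0.0940). Over 13 alternatives Bst2 was called in 9 and Trim30a in 8.

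**Figure D3:**
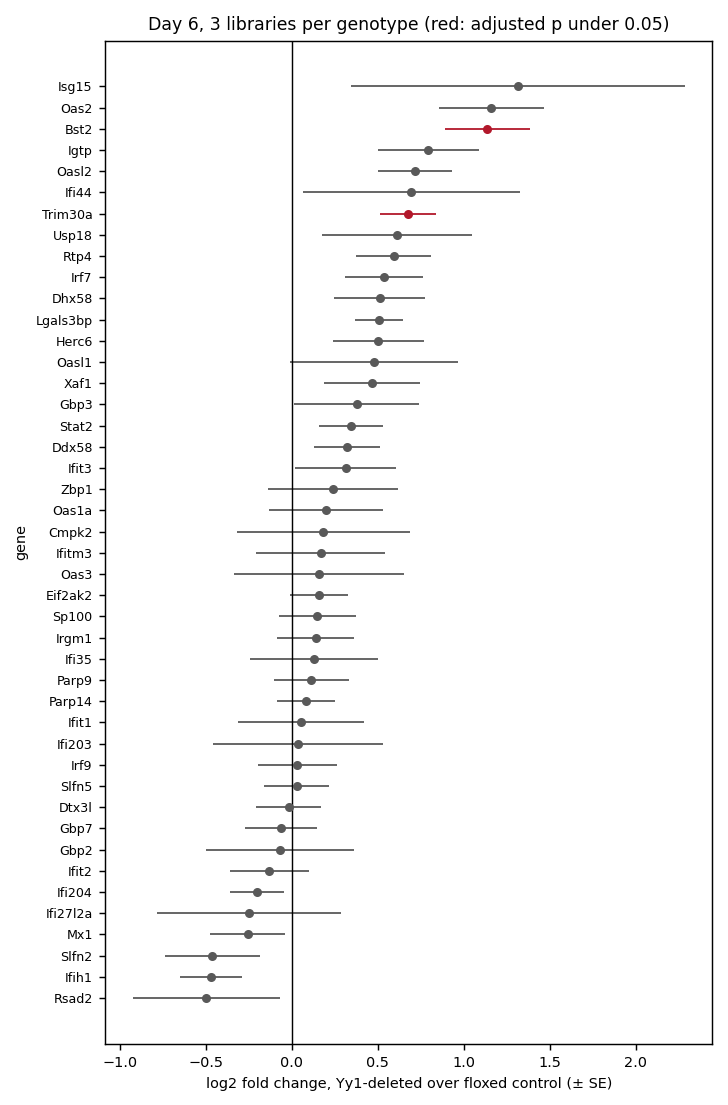
The log2 fold change of Yy1-deleted over floxed libraries for each of the 44 genes, with bars of 1 standard error, 3 libraries per genotype, and red for an adjusted p under 0.05. Bst2 (1.14) and Trim30a (0.68) are red, and Isg15 (1.32) has the highest value with the widest bar.

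Below that threshold, 9 of the 44 had an unadjusted p under 0.05 in edgeR, 8 of them higher, against 7.11% of all genes higher and 7% lower. Besides Bst2 and Trim30a these were Oas2, Oasl2, Irf7, Rtp4, Igtp and Lgals3bp, with Ifih1 lower. Oas2 stood at 134, 87.4 and 52.0 CPM in Yy1-deleted libraries, against 47.9, 36.1 and 38.4 CPM in floxed libraries. Its groups do not overlap, but the Yy1-deleted libraries spread widely, and it missed the threshold (log2 fold change 1.16 ± 0.31, adjusted p = 0.0571). Oasl2 stood at 136, 138 and 114 CPM in Yy1-deleted libraries, against 66.3, 101 and 68.4 CPM in floxed libraries (log2 fold change 0.72 ± 0.21, adjusted p = 0.0956). Lgals3bp stood at 946, 842 and 818 CPM in Yy1-deleted libraries, against 572, 529 and 734 CPM in floxed libraries (log2 fold change 0.51 ± 0.14, adjusted p = 0.0691). Irf7 stood at 81.3, 81.2 and 109.2 CPM in Yy1-deleted libraries, against 66.8, 52.6 and 67.7 CPM in floxed libraries. Ifih1 stood at 104, 97.7 and 116 CPM in Yy1-deleted libraries, against 136, 163 and 140.1 CPM in floxed libraries (log2 fold change -0.47 ± 0.18, adjusted p = 0.227). In 12 of the 44 genes every Yy1-deleted library was above every floxed library, and in 1 every one was below, against 9.54% and 11.5% of all genes.

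**Figure D4:**
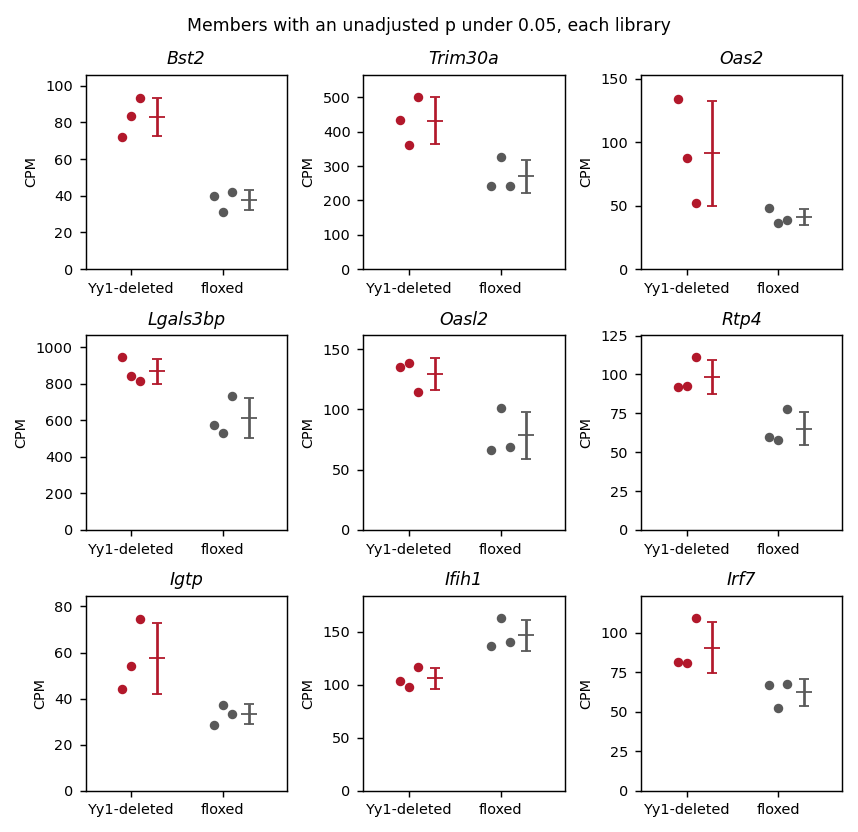
CPM in each library for the 9 genes with an unadjusted p under 0.05, Yy1-deleted left and floxed right, with the mean and SD beside the 3 points. In 8 genes the Yy1-deleted points lie above the floxed points, and in Ifih1 they lie below.

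By role, all 5 OAS genes and all 4 transcription factor and feedback genes had a fold change above 0, while the antiviral effectors split. Of the IFIT genes Ifit1 had a log2 fold change of 0.05 ± 0.37, Ifit2 one of -0.13 ± 0.23 and Ifit3 one of 0.31 ± 0.29 (adjusted p from 0.746 to 0.979 in edgeR). Mx1 stood at 66.3, 66.7 and 90.9 CPM in Yy1-deleted libraries, against 81.7, 92.7 and 92.7 CPM in floxed libraries, with groups that overlap narrowly. Rsad2 had the lowest fold change (-0.50 ± 0.43), and Isg15 the highest (1.32 ± 0.97), from 3.94, 13.5 and 9.27 CPM in Yy1-deleted libraries, against 2.52, 6.90 and 1.33 CPM in floxed libraries. The floxed controls were not alike, since floxed library 2 was the highest of the 3 for 26 of the 44 genes, against 32.3% of all genes. The abundant genes Parp14, Ifi204, Slfn5, Stat2, Eif2ak2, Sp100 and Dtx3l had fold changes from -0.20 to 0.35 with overlapping groups.

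Among the pathway's other genes, the nucleic acid sensors moved in both directions. Tmem173, which encodes the DNA-sensing adaptor STING, stood at 266, 421 and 422 CPM in Yy1-deleted libraries, against 137, 144 and 148 CPM in floxed libraries (log2 fold change 1.37 ± 0.18, adjusted p = 0.000491 in edgeR). Tlr3, the endosomal double-stranded RNA receptor (0.99 ± 0.16), and Unc93b1, which carries such receptors to the endosome (0.91 ± 0.13), also rose. Tlr7, the single-stranded RNA receptor (-0.57 ± 0.13), and Tbk1, the kinase downstream of STING (-0.79 ± 0.19), fell (adjusted p from 0.00114 to 0.0320 over these 4 in edgeR). Thus 3 of 17 sensors and adaptors rose and 2 fell, where 1.55% of all genes tested were called higher and 1.05% lower. Irf8, a factor of microglial identity and interferon signalling, stood at 499, 531 and 464 CPM in Yy1-deleted libraries, against 338, 295 and 315 CPM in floxed libraries, and rose (0.66 ± 0.13, adjusted p = 0.0123 in edgeR). It was 1 of 10 interferon transcription factors called. None of the 8 receptor and kinase genes tested was called, with Ifnar1 at -0.29 ± 0.17 and Jak1 at 0.12 ± 0.14. Of 63 further interferon-induced genes tested, 1 rose, Ly6e (0.66 ± 0.15), and 1 fell, Ly6a (-1.80 ± 0.39), beside 1.55% and 1.05% of all genes. None of the 12 interferon genes had enough counts to be tested.

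All 10 microglial markers rose in Yy1-deleted microglia, from Csf1r (log2 fold change 0.40 ± 0.09, adjusted p = 0.0181 in edgeR) to Olfml3 (1.92 ± 0.16, adjusted p = 4.74e-06 in edgeR). Their summed level was 24552 to 26590 CPM in Yy1-deleted libraries, against 15331 to 16558 CPM in floxed libraries. Summed monocyte markers were 613 to 731 CPM in Yy1-deleted libraries, against 836 to 1209.6 CPM in floxed libraries, and without Fn1 41.0 to 62.3 CPM in Yy1-deleted libraries, against 100.4 to 118 CPM in floxed libraries. Border-associated macrophage markers were 22.2 to 42.8 CPM in Yy1-deleted libraries, against 80.9 to 105.6 CPM in floxed libraries, and the sum of neutrophil markers was 1177 to 1486 CPM in Yy1-deleted libraries, against 749 to 853 CPM in floxed libraries. That last difference lay in Csf3r, and the other 7 neutrophil markers summed to 206 to 347 CPM in Yy1-deleted libraries, against 276 to 291 CPM in floxed libraries, which overlap. Csf3r and Fn1 were set apart after their values were seen. Their part in the fold changes of the interferon-stimulated genes was not tested.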

How the data were processed

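Bulk RNA of sorted mouse microglia was measured in 15 libraries. The deposited tables of the time course with the day 6 EGFP cells and of the day 14 EGFP cells held whole read counts per gene, and the Yy1 table held expected counts as deposited by the authors, in which 3.55% to 4.75% of values per library were not whole. Per the submitters' processing notes, the tools were STAR, featureCounts and edgeR and the builds mm10 and GRCm38; whether counting used strand is not given in the sources used here. Of the low counts, 74.8% to 90.9% were even in the first table, 68.7% to 69.3% in the second and 44.2% to 48.2% in the Yy1 table. Names of 27 genes were date-like, and 0 columns were unused.

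Expected counts were rounded, then tested with edgeR 4.0.16 (R 4.3.3) after filterByExpr and TMM scaling, with Benjamini-Hochberg adjustment at 0.05 over all genes. DESeq2 1.42.0 and limma 3.58.1 were alternatives, as were other scalings, no filter, a replicate block and leaving out each library. Unreplicated contrasts gave ratios, on the log2 scale, of CPM plus 1 after TMM, which understates low genes, with a size rule of 2 (time course) or 1 (EGFP) and at least 20 CPM in 1 library. The day 14 EGFP table was scaled apart, so levels are not compared across tables. The procedures were tested on simulated data. Values were given for genes called, the 10 highest genes of each table and the 8 highest and lowest ratios. They were also given for some genes outside these rules, among them Isg15, and Irf7 and Mx1 in the Yy1 comparison. The genes and lists were chosen with earlier results of these data known. Promoter windows came from RefSeq and gene spans from GENCODE M21, in which exons of 16 of the 44 genes were overlapped by another gene, 9 of them on the other strand. Near copies (Ifit1 and Ifit3b, Oas1a and Oas1g, Ifi203 and Ifi204, Gbp, Slfn and Trim30 genes) may share reads.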

Additional observations from a re-analysis of the deposited data

Results flagged for a closer look

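In 10 of the 44 genes the log2 ratio of EGFP-positive over EGFP-negative cells was below -1 on day 6 and above 1 on day 14, which is why they are listed; over all genes that reached 20 CPM on both days, 77 of 5658 (1.36%) did the same. The change of the log2 ratio, day 14 minus day 6, was 8.23 for Oasl1, 7.04 for Oas3, 4.87 for Mx1, 4.65 for Ifitm3 and 3.21 for Ifit2. It was 3.19 for Cmpk2, 3.18 for Oas2, 2.61 for Sp100, 2.41 for Irf7 and 2.33 for Usp18. Oasl1 and Oas3 had 0 counts in EGFP-negative cells on day 14, so their values depend on the pseudocount of 1 CPM. The difference between the days was not tested, since each day had 1 library per state, and the days were sequenced and scaled apart. Of the marker sums of other cells, those of neutrophils, monocytes, endothelial and mural cells, the oligodendrocyte lineage and T and NK cells moved with both contrasts, as given above. Their part was not tested.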

How the results depend on the processing

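Of the Yy1 calls, 192 genes higher and 130 lower became 127 higher with total counts, 309 higher and 266 lower with no filter, 383 higher and 370 lower with DESeq2, and 289 higher with limma-voom. Leaving out 1 library gave 58 to 166 genes higher and 39 to 151 lower, with floxed library 1 at the low end of both. Of the 44 genes, 2 higher became 1 with total counts, 5 with no filter, with DESeq2 or with limma-voom, and 0 to 2 with a library left out; the number lower stayed at 0 under these alternatives. Oas2, Lgals3bp and Oasl2 made up the added calls without a filter, with DESeq2 and with limma-voom. The labels do not say whether the same replicate number marks paired samples. In a check for pairing, correlations between same-numbered libraries of the genotypes were -0.0076, -0.048 and -0.015, and those between differently numbered ones ran from -0.028 to 0.040. They are not correlations of the levels themselves, and they cannot show that nothing was shared. The replicate block gave 4 of the 44 genes higher. Parp14 turned to -0.023 and Slfn5 to -0.077 with total counts, and with 1 library left out Parp14 ran from -0.065 to 0.24, Dtx3l from -0.11 to 0.069 and Slfn5 from -0.13 to 0.13; the cause was not tested. A minimum of 50 CPM left 3 genes higher on day 1 and 10 on day 6 against sham, 0 on day 6 against day 1, 5 lower on day 28 against day 14 and 14 lower on day 6 in EGFP-positive cells, as it considers fewer genes. On day 6 against day 1, a minimum of 5 CPM gave 3 higher and a pseudocount of 5 CPM gave 0. On day 14 against day 6, a pseudocount of 5 CPM gave 1 higher and a minimum of 5 CPM gave 1 lower, and asking for 10 counts in both libraries left 7 lower on day 28 against day 14. In the joint EGFP fit DESeq2 called 18 genes higher and 13 lower where edgeR called 0. Size factors in place of TMM moved the median of all genes by 0.17 on day 14 and 0.12 on day 28 against sham and by 0.13 on day 14 against day 6, and total counts moved it by 0.11 on day 14 against sham, -0.12 on day 28 against day 14 and -0.10 in the day 14 EGFP pair. Of the 44 genes, 4 were at 0 in the wild-type day 28 library (22713117 counts) and 0 in that of day 14 (16786830 counts). In the day 14 EGFP pair, 5 were at 0 in the EGFP-negative library (24554968 counts) and 0 in the EGFP-positive library (23105218 counts). The part of depth in the genes at 0 was not tested, and the unreplicated contrasts have no spread to be set against.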
